A study of Mus musculus with 81 samples.

Results

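The genes described here encode lysosomal hydrolases, proteins of the lysosomal membrane and subunits of the proton pump that acidifies the lysosome, with Tfeb, a regulator of lysosomal genes. The list names 37 genes, chosen by name and function, and 36 of them were among the 22180 genes for which the arrays had a probe with that gene symbol alone. The brightest such probe of each gene was read, and all 36 passed the filter on low values. The only probe of Glb1, the lysosomal beta-galactosidase, is shared with Tmppe and was left out of the tests. The 36 genes were 8 membrane proteins, 8 enzymes that cleave sugars from glycans or glycolipids, 4 sulfatases, 6 proteins that break down or carry lipids, 3 proteins of the protease group, Tfeb and 6 proton-pump proteins.

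Messenger RNA was measured in macrophages and their progenitors, purified by flow cytometry from mice, wild type or Irf8 knockout. IRF8 is an interferon regulatory factor needed by several myeloid lineages. The embryonic populations were E8 yolk-sac erythro-myeloid progenitors (wild type only), the E9.5 yolk-sac progenitor populations named A1 and A2, and, at E14, microglia of the brain, Kupffer cells of the liver, F4/80high macrophages of the kidney and CD11bhigh macrophages of liver and kidney. The adult populations, from mice 6 weeks old, were the same 5 and Langerhans cells of the skin. Every population but the E8 progenitors was measured in both genotypes, which gave 27 groups and 80 samples, 3 in each group except 2 for wild-type E14 kidney F4/80high macrophages. The labels name neither the mouse strain nor the knockout allele. They do not say which samples came from separate animals, so the p-values measure the spread between these samples only. Titles of the wild-type Langerhans samples carry a GFP mark that no other title carries, and every comparison with wild-type Langerhans cells rests on them.

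Values are log2 signals, so a difference of 1 is a doubling. Changes are given as log2 difference ± standard error of the limma fit, and a gene was called higher or lower where its two-sided p, adjusted by the Benjamini-Hochberg method over all 17076 genes tested, was under 0.05. Signals of different genes come from different probes and are not compared with each other. In sorted bulk samples, fewer cells of a type and less RNA per cell cannot be told apart. The number of arrays limits the precision.

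Lysosomes are acidic organelles in which macrophages digest what they engulf. Hydrolases reach them through the secretory pathway, membrane proteins such as LAMP1 and LAMP2 line them, and the vacuolar-type proton pump, built from a membrane sector (V0) and a cytosolic sector (V1), lowers their pH. TFEB and its relatives switch on many lysosomal genes by binding a CACGTG core within an element called CLEAR. IRF8 binds interferon-response elements, and with PU.1 it binds composite elements that join a GGAA core to a GAAA core.

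RefSeq promoters (mouse build GRCm38.p6, 250 bases before to 50 bases after each start) were at hand for 32 of the 37 genes, 36 promoters in all, and were searched on both strands. The CACGTG core occurred in 10 of the 36 promoters (27.8%), against 7.15% of the 32851 promoters of all genes. The 10 genes were Lamp1, Mcoln1, Gla, Gaa, Naglu, Sgsh, Lgmn, Glb1, Atp6v0d1 and Atp6v1a. The longer CLEAR palindrome, that core between GT and AC, occurred in 0 of the 36 and in 0.326% of all promoters. The composite of GGAA and GAAA with 2 bases between them occurred in 2 of the 36 (5.6%, Scarb2 and Cd68; 2.72% of all). The interferon-response sequence, GAAA repeated after 2 bases, occurred in 1 of the 36 (2.8%, Lamp1; 3.44% of all). A match describes letters in a window and is not a measured binding site.

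The 150 bases before the start are shown for 6 genes. Lamp1 and Mcoln1 are shown because they hold more than 1 CACGTG core in this window, Naglu, Gaa and Lgmn as genes with a single core that changed in several comparisons, and Scarb2 for the composite sequence. They are written 5′ to 3′ on the strand of the gene. Capitals mark CACGTG, and in Scarb2 the composite read on the other strand. The windows are chr8:13159011-13159160 (plus strand) for Lamp1, chr8:3500369-3500518 (plus) for Mcoln1, chr11:101069944-101070093 (plus) for Naglu, chr11:119267813-119267962 (plus) for Gaa, chr12:102439093-102439242 (minus) for Lgmn and chr5:92505658-92505807 (minus) for Scarb2. Lamp1 held 4 cores, which began 61, 45, 28 and 15 bases before the start, and Mcoln1 held 2, at 71 and 45 bases. The single cores of Naglu, Lgmn and Gaa began 73, 49 and 140 bases before the start, and the Scarb2 composite 114 bases before it. RefSeq lists 2 starts for Lgmn. The window shown belongs to the second, which lies inside the annotated gene (chr12:102394082-102439728), and no core was found in the promoter of the first, outer start.
Lamp1: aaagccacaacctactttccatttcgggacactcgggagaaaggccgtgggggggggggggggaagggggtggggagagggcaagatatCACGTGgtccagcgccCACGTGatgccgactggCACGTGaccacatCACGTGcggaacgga
Mcoln1: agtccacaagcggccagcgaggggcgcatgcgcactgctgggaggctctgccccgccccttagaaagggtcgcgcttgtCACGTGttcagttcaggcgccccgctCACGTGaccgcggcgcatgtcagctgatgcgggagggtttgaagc
Naglu: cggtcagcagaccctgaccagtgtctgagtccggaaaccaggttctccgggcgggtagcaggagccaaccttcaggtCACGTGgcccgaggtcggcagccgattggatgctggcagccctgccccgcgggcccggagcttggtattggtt
Gaa: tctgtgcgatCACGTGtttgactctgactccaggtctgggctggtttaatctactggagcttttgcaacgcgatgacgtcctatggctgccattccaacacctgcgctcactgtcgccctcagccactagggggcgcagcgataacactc
Lgmn: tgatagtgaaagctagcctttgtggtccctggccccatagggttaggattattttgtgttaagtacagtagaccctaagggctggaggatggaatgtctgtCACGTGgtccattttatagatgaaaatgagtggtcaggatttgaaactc
Scarb2: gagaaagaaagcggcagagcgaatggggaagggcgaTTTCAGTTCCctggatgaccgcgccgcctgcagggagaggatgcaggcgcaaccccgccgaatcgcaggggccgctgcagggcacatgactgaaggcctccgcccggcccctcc

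The samples were checked first. Array medians ran from 2.942 to 3.195 log2, and the median of the whole table, 3.041, served as the floor of the filter. The probe for Irf8 was lower in every knockout sample than in every wild-type sample in 4 of the 13 populations, higher in 2 and overlapping in 7, so it does not check the genotype labels. The probe may read a part of the gene that the knockout leaves in place. The sum of 8 general macrophage markers (Adgre1, Csf1r, Fcgr1, Mertk, Cd14, C1qa, C1qb and Aif1, none of them a lysosomal gene of the list) was 23.3 to 25.5 in E8 progenitors. It was 45.8 to 48.6 in wild-type A1, 61.8 to 63.7 in A2, 73.9 to 78.8 in E14 microglia, Kupffer cells and kidney F4/80high macrophages, and 47.9 to 49.4 in adult Langerhans cells. Markers of the labelled cell types were in place: in wild-type adults the microglia list (7 genes) summed to 72.6 to 73.5 in microglia and 34.7 to 35.0 in Kupffer cells, the Kupffer list (8 genes) to 80.2 to 81.8 in Kupffer cells and 21.6 to 21.9 in microglia, and the Langerhans list (5 genes) to 51.0 to 51.4 in Langerhans cells and 13.5 to 18.7 in microglia.

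Lysosomal genes rose broadly as progenitors became macrophages. Over the 4 adult resident populations (microglia, Kupffer cells, kidney F4/80high macrophages and Langerhans cells) against E8 progenitors, 33 of the 36 genes were higher and 1 lower, where 27.6% of all tested genes were higher and 31.3% lower. The median change of the 36 genes was 1.51, against 0.01 over all genes. On the mean of the 4 populations the 8 membrane proteins, 8 sugar-cleaving enzymes, 4 sulfatases, 3 protease-group genes and Tfeb were all higher. So were 5 of 6 lipid genes and 4 of 6 pump genes. Single populations could still lie below E8. In Langerhans cells Lamp1 (mean 8.76 against 9.19 in E8), Gaa (3.64 against 5.78) and Sgsh (3.23 against 3.69) did so, among others. Cd63 lay below E8 in Kupffer cells (6.38 against 8.01) and Gla in microglia (5.02 against 5.53). The calls of Gaa and Atp6v0a1 were lost when 1 or another sample was left out. Smpd1, the acid sphingomyelinase, was lower, and the pump genes Atp6v1a and Atp6v0d2 were not called. Macrophage markers moved with this change, as given above, and their part in it was not tested.

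**Figure D1:**
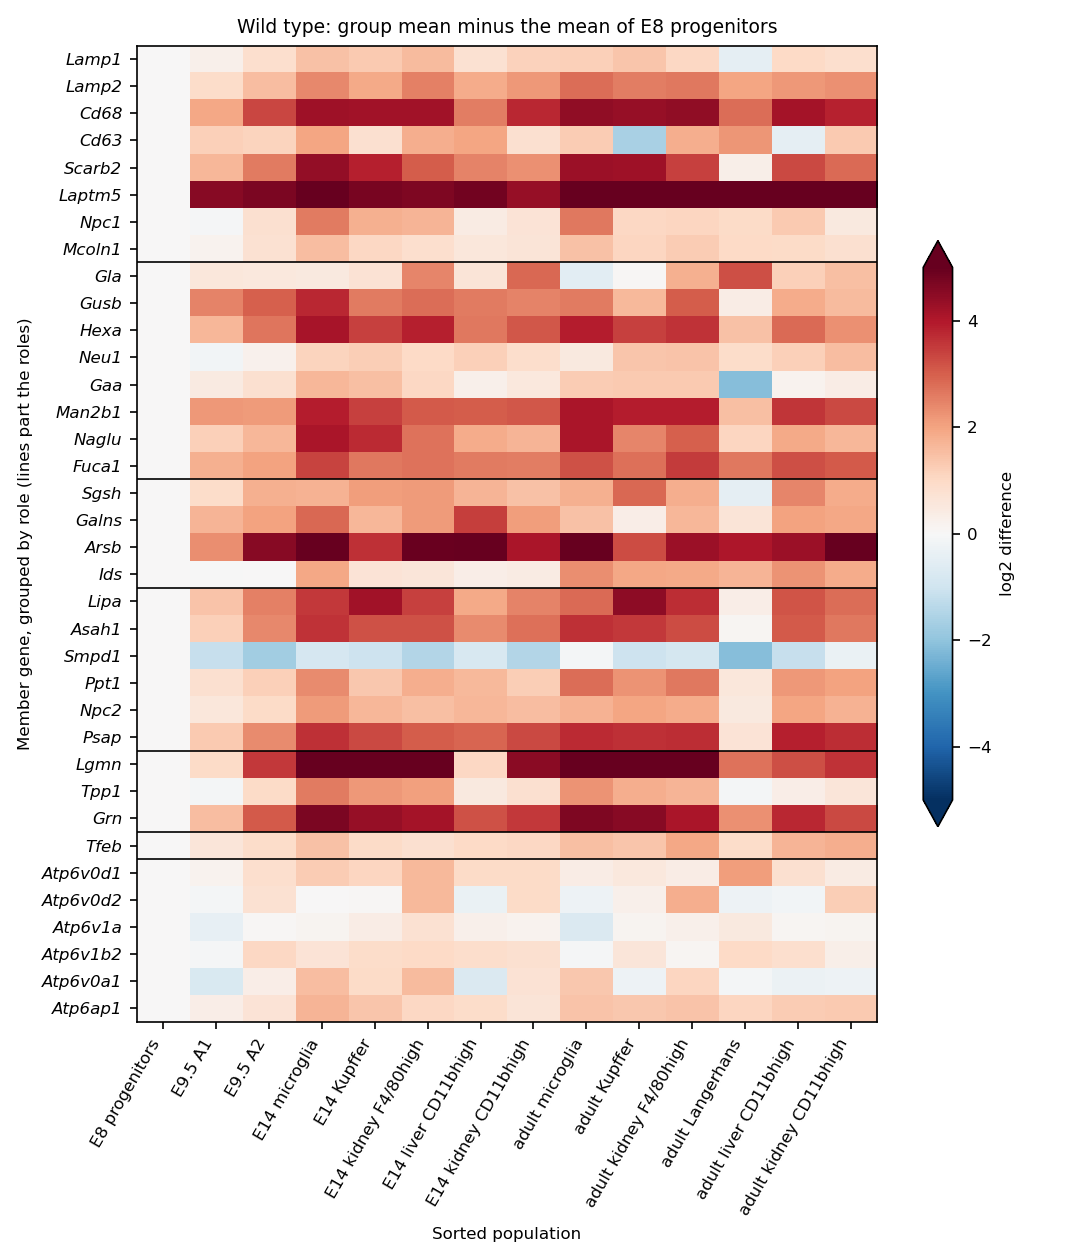
Wild-type group means of the 36 genes (rows, grouped by role) minus the mean of E8 progenitors, in log2, for 14 populations (columns), from blue (lower) to red (higher). Laptm5, Arsb, Lgmn, Cd68 and Grn turn deep red in most populations, while Smpd1 stays blue or white and the proton-pump rows stay pale.

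Over the mean of the 4 adult resident populations the largest rise was that of Laptm5, a lysosomal membrane protein of blood cells. Its level was 4.01, 4.27 and 4.10 in the E8 samples and 8.49, 8.69 and 8.81 in the wild-type A1 samples. The groups did not overlap, and most of the rise was already present in A1: the change was 4.54 ± 0.1 from E8 to A1 (23.3-fold, adjusted p = 1.49e-44) and 5.26 ± 0.08 from E8 to the adult populations (38.3-fold, adjusted p = 1.31e-54). From A1 to A2 its change was only 0.15 and was not called.

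Arsb, the sulfatase that acts on dermatan and chondroitin sulfate, rose in steps and then parted by tissue. It read 2.85, 2.70 and 3.11 in E8 progenitors, 4.97, 4.99 and 5.64 in A1, and 7.24, 7.24 and 7.83 in A2. E14 microglia followed at 10.76, 10.74 and 10.71. No group overlapped the one before it, although the E8 values lay about the floor of 3.041, so the fold from E8 depends on values near background. The changes were 2.31 ± 0.37 from E8 to A1 (adjusted p = 7.45e-07), 2.24 ± 0.37 from A1 to A2 (adjusted p = 4.33e-06) and 3.3 ± 0.37 from A2 to E14 microglia (adjusted p = 7.66e-11). E14 Kupffer cells and E14 kidney F4/80high macrophages were not called against A2 for this gene.

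Lgmn encodes legumain, a protease that cuts after asparagine. It read 5.33, 5.17 and 5.43 in E8, 5.77, 6.31 and 6.66 in wild-type A1, 9.06, 8.96 and 8.52 in A2, and 11.37, 11.34 and 11.36 in E14 microglia. Each step raised all samples above those of the step before. The rise from E8 to A1 was small, at 0.94 ± 0.25 (adjusted p = 0.00269), and the one from A1 to A2 was large, at 2.6 ± 0.25 (6.07-fold, adjusted p = 7.61e-13). Cd68, a heavily glycosylated membrane protein of macrophage lysosomes, and Grn, the precursor of granulins, rose in both early steps. Cd68 rose by 1.92 ± 0.18 into A1 and by 1.41 ± 0.18 into A2, and Grn by 1.56 ± 0.14 and 1.51 ± 0.14 (adjusted p between 8.88e-14 and 5.14e-09 for the step into A2 of these 2 genes).

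From E8 to A1, 21 of the 36 genes were higher and 2 lower (12.8% and 9.91% of all genes), with a median change of 0.86 against -0.06 over all genes. Beside Laptm5 and Arsb the largest rises were in Gusb (2.48 ± 0.15), the beta-glucuronidase, and Man2b1 (2.19 ± 0.13), the alpha-mannosidase. Gusb read 6.03, 6.53 and 6.14 in E8 and 8.86, 8.73 and 8.56 in A1, with no overlap. Smpd1 fell, from 6.43, 5.76 and 6.28 to 4.78, 4.91 and 5.30, a change of -1.16 ± 0.3 (adjusted p = 0.00225), again with no overlap. Atp6v0a1, a V0 subunit, also fell (-0.74 ± 0.22), a call that was lost without 1 of the samples.

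From A1 to A2 in the wild type, 20 genes were higher and 0 lower (5.67% and 5.7% of all genes), with a median of 0.59 against -0.02. The 20 included 6 of 8 membrane proteins, 4 of 6 lipid genes, all 3 of the protease group and 3 of 6 pump genes. The pump genes were Atp6v1b2 (1.09 ± 0.13), a V1 subunit, Atp6v0a1 (1.1 ± 0.22) and Atp6v0d1 (0.66 ± 0.14), V0 subunits. Atp6v1b2 read 8.73, 8.73 and 8.75 in A1 and 9.73, 9.80 and 9.92 in A2, so each A2 sample lay above each A1 sample.

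From A2 to E14, 30 genes were higher and 1 lower in microglia (14% and 15.2% of all genes), 21 higher and 1 lower in Kupffer cells (11.5% and 14.1%), and 20 higher and 0 lower in kidney F4/80high macrophages (9.92% and 8.28%). The 3 comparisons share the A2 samples. Medians were 0.96, 0.64 and 0.71, against -0.01, -0.06 and -0.01 over all genes. Naglu, which degrades heparan sulfate, rose by 2.41 ± 0.36 in microglia and by 2.08 ± 0.36 in Kupffer cells. It was not called in kidney. Lipa, the acid lipase that frees cholesterol from its esters, read 7.86, 7.81 and 7.55 in A2 and 9.31, 9.42 and 9.53 in E14 Kupffer cells, and rose by 1.68 ± 0.18 (adjusted p = 1.18e-11). Gla, the alpha-galactosidase, read 6.20, 6.11 and 5.87 in A2 and 8.17 and 7.81 in E14 kidney F4/80high macrophages. Both kidney samples lay above the A2 samples, a rise of 1.93 ± 0.26 (adjusted p = 3.35e-08), and Gla was called in neither microglia nor Kupffer cells. The lower calls were Atp6v1b2 in microglia (-0.37 ± 0.13) and Gusb in Kupffer cells (-0.4 ± 0.15), and both were lost when 1 sample was left out.

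**Figure D2:**
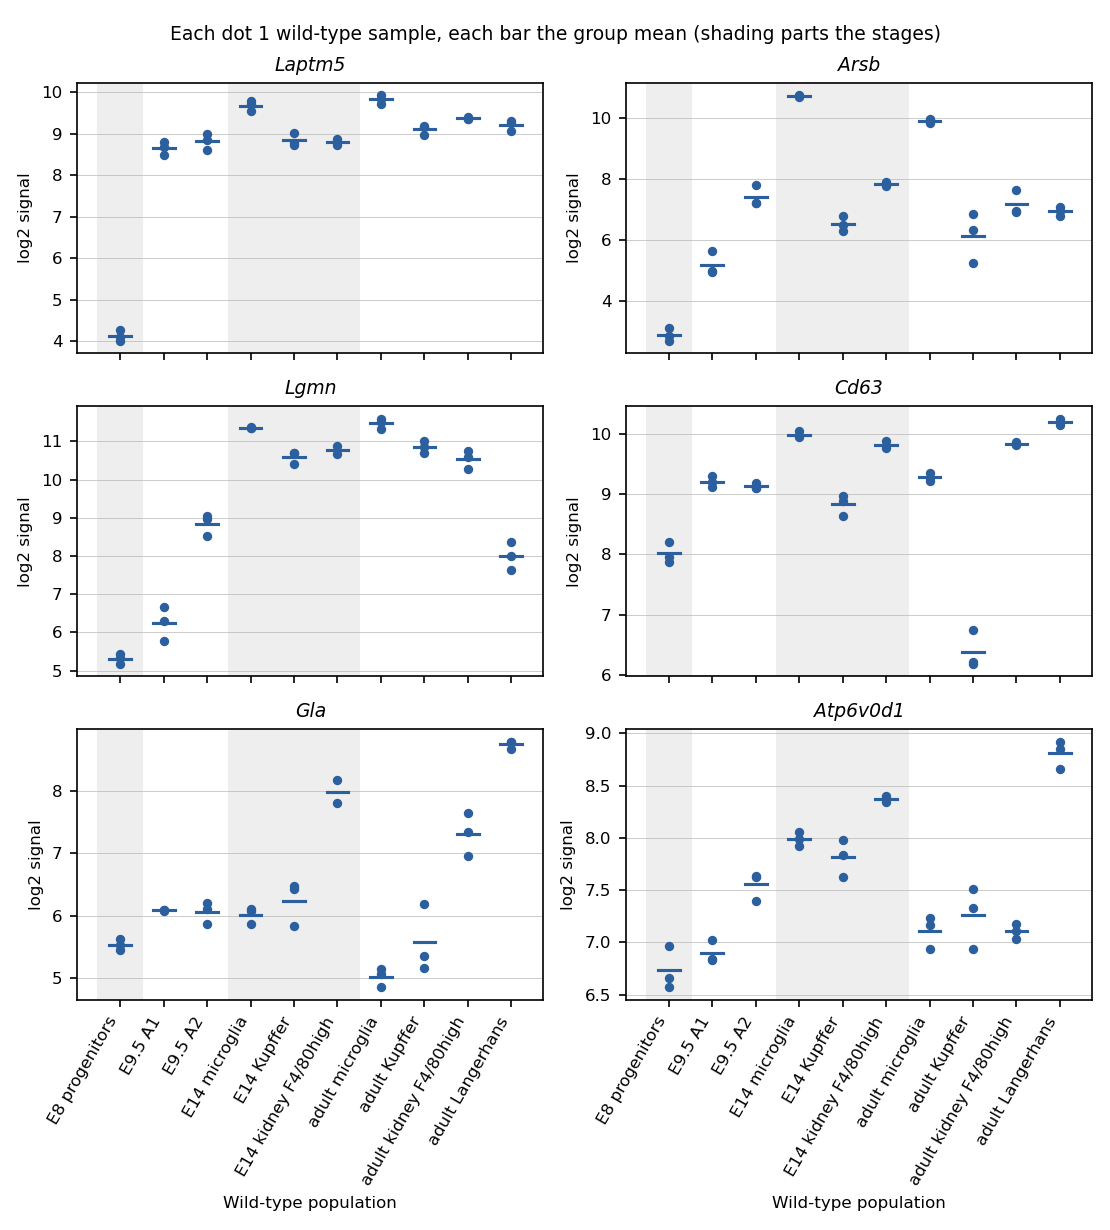
Log2 signal of 6 lysosomal genes in each wild-type sample (dots) of 10 populations from E8 to the adult, with group means as bars and shading to part the stages; each panel has its own axis. Laptm5 reaches 8.49 or more in A1 from at most 4.27 in E8, Lgmn climbs in steps, Cd63 is lowest in adult Kupffer cells, and Gla and Atp6v0d1 are highest in Langerhans cells.

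From E14 to the adult the rise did not go on as a group. In microglia 2 genes were higher and 10 lower (6.69% and 11.7% of all genes), in Kupffer cells 5 higher and 10 lower (11.8% and 18.3%), and in kidney F4/80high macrophages 7 higher and 5 lower (12.3% and 16%). With quantile normalization these splits were 3 and 8, 7 and 9, and 11 and 4; with each array centred on its median, the kidney split was 7 and 7. Medians were -0.18, 0.11 and 0.19. Called lower in all 3 lineages were the pump genes Atp6v0d1 (-0.88 ± 0.14, -0.56 ± 0.14 and -1.26 ± 0.16) and Atp6v1b2 (-0.72 ± 0.13, -0.32 ± 0.13 and -0.9 ± 0.14), and Gla (-1.0 ± 0.23, -0.67 ± 0.23 and -0.68 ± 0.26), in the order microglia, Kupffer cells, kidney. Atp6v0d1 in kidney read 8.34 and 8.4 at E14 and 7.18, 7.11 and 7.03 in the adult, well apart. Ppt1, which removes palmitate from proteins, was called higher in all 3 lineages, by 0.45 ± 0.13, 0.88 ± 0.13 and 0.81 ± 0.15. Some of these calls were lost without some single sample: Atp6v1b2 and Gla in Kupffer cells, Gla in kidney and Ppt1 in microglia. Gla also overlapped between the ages in Kupffer cells. Atp6v0d1 kept its call in all 3 lineages whichever sample was left out. Gla is X-linked, and Xist, a marker of sex, also changed with age. It was 5.76 to 9.71 in E14 Kupffer cells and 2.71 to 3.88 in adult ones. In kidney F4/80high macrophages it was 6.01 to 9.74 and 2.58 to 3.57, and in microglia 7.39 to 10.21 and 2.99 to 10.36. In Kupffer cells and kidney macrophages the ages thus also differed in this marker of sex, and its part was not tested.

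Cd63, a tetraspanin of late endosomes, fell most with age in Kupffer cells. It read 8.63, 8.88 and 8.97 at E14 and 6.18, 6.75 and 6.22 in the adult, far apart, a change of -2.45 ± 0.23 (adjusted p = 1.36e-13). Ids, the iduronate sulfatase and also X-linked, rose in Kupffer cells (1.22 ± 0.21) and kidney macrophages (1.28 ± 0.23). The part of sex in this rise was not tested. Galns, another sulfatase, fell in microglia (-1.39 ± 0.24) and Kupffer cells (-1.33 ± 0.24). In microglia Galns went from 6.90, 6.88 and 6.79 to 5.45, 5.48 and 5.47, with little spread on either side. Gusb fell in the same lineages, by 1.16 and 0.98 on the log2 scale.

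In the adult, the 4 wild-type resident populations differed in 35 of the 36 genes by limma's moderated F-test over the 4 groups, where 66.4% of all genes differed. Atp6ap1, an accessory protein of the pump, was not called (adjusted p = 0.0776). Microglia had the highest mean for 19 genes, kidney F4/80high macrophages for 8, Langerhans cells for 5 and Kupffer cells for 4. Langerhans cells had the lowest mean for 26 genes. These are orders of means, and the same orders were not counted over all genes. Some means were nearly equal, such as those of Psap in microglia, Kupffer cells and kidney macrophages (10.78, 10.72 and 10.77). The largest F value, 301, was that of Scarb2, the receptor that brings glucocerebrosidase to the lysosome. It read 9.21, 9.30 and 9.44 in microglia, 9.45, 9.31 and 9.15 in Kupffer cells, but 5.19, 5.46 and 5.4 in Langerhans cells. Microglia and Kupffer cells overlapped, and Langerhans cells stood far below both. The 5 genes highest in Langerhans cells were Cd63, Gla, Atp6v0d1, Atp6v1a and Atp6v1b2, of which the last 3 are pump subunits. Gla ran the full range, from 5.06, 5.14 and 4.85 in microglia to 8.68, 8.79 and 8.79 in Langerhans cells. Adult Kupffer cells (6.19, 5.16 and 5.36) and kidney macrophages (7.35, 7.64 and 6.95) lay between. Gla is X-linked, and Xist, a marker of sex, was 9.77 to 10.3 in these Langerhans samples. It was 2.71 to 3.88 in Kupffer cells, 2.58 to 3.57 in kidney macrophages and 2.99 to 10.36 in microglia. The populations thus differed in this marker of sex as well, and its part was not tested.

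Across the 14 wild-type groups most of the list moved together. Of the 630 pairs of genes, 335 had a Pearson correlation of group means above 0.5 and 76 had one below 0, with a median of 0.55. The groups share amplification and normalization, and the values are descriptions. Pairs of other genes were not read, so the values do not show that these genes moved together more than others. The closest pairs were Psap with Npc2 (0.98), Scarb2 with Asah1 (0.97) and Hexa with Grn (0.97). Psap is the precursor of the saposins that help degrade sphingolipids, Npc2 carries cholesterol out of the lysosome, Asah1 is the acid ceramidase, and Hexa is a subunit of beta-hexosaminidase. Standing apart, with a median correlation to the other genes under 0.25, were Smpd1 (-0.01), Gla (-0.0), Cd63 (0.06), Atp6v1a (0.07), Atp6v1b2 (0.17) and Atp6v0d1 (0.24). The mean of the macrophage markers correlated at 0.96 with Lgmn and at 0.95 with Cd68, Hexa and Grn. Tfeb stayed low, between 2.05 and 4.47 over the samples, and was above the floor in 52 of 80. Atp6v0d2, an alternative d subunit, was above it in 15 of 80 samples. In wild-type adult kidney CD11bhigh macrophages it read 5.80, 2.08 and 2.12, so 1 sample made its high mean there.

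The sorting gate mattered within an organ. In adult kidney, F4/80high macrophages exceeded CD11bhigh macrophages in 18 genes and fell below them in 0 (14.5% and 9.14% of all genes; median 0.45 against 0.01), but with only the 2 groups in the fit 9 were called. Lgmn read 10.27, 10.60 and 10.74 in the F4/80high gate and 9.21, 8.97 and 8.57 in the CD11bhigh gate, with no overlap, a difference of 1.62 ± 0.25 (adjusted p = 5.08e-07). Gusb (1.44 ± 0.15), Hexa (1.35 ± 0.16) and Atp6v0a1 (1.36 ± 0.22) differed by a similar amount. In adult liver, Kupffer cells exceeded CD11bhigh macrophages in 11 genes and fell below them in 5 (12.7% and 15.3% of all genes; median 0.1 against -0.03). The split was 6 and 9 with each array centred on its median, which moved the median of all genes to -0.18, and 11 and 3 with quantile normalization. The largest differences were Lgmn (2.33 ± 0.25), the peptidase Tpp1 (1.46 ± 0.13), Lipa (1.33 ± 0.18) and the alpha-glucosidase Gaa (1.13 ± 0.24), and, lower in Kupffer cells, Galns (-1.68 ± 0.24), Cd63 (-1.19 ± 0.23), Gla (-1.16 ± 0.23) and Arsb (-1.01 ± 0.37). Tpp1 read 9.60, 9.27 and 9.49 in Kupffer cells and 7.89, 8.07 and 8.00 in the CD11bhigh gate, far apart. Hepatocyte and endothelial markers were higher in the Kupffer samples (sample means of 8.39 to 8.87 against 5.43 to 6.08, and of 5.36 to 7.04 against 2.81 to 3.07), and their part in these differences was not tested.

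In the Irf8 knockout, lysosomal genes were lower than in the wild type far more often than higher. Over 13 populations, 149 of 468 tests of the 36 genes were lower (31.8%) and 22 higher (4.7%). Over all genes, 6.59% of the 221988 tests were lower and 6.36% higher. Only Atp6v0d2 was lower in none. Psap was lower in 12 populations and higher in 1, the Langerhans cells, with a median change of -0.93. Npc2 was lower in 9, Lgmn in 8, and Asah1 and Lamp1 in 7. Lgmn lay below the wild-type mean in each of the 13, by between 0.36 and 3.46. Lgmn, Npc2, Cd68, Hexa and Tpp1 were called higher in none of the 13. Cd63 went the other way, with 3 populations higher and 1 lower.

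**Figure D3:**
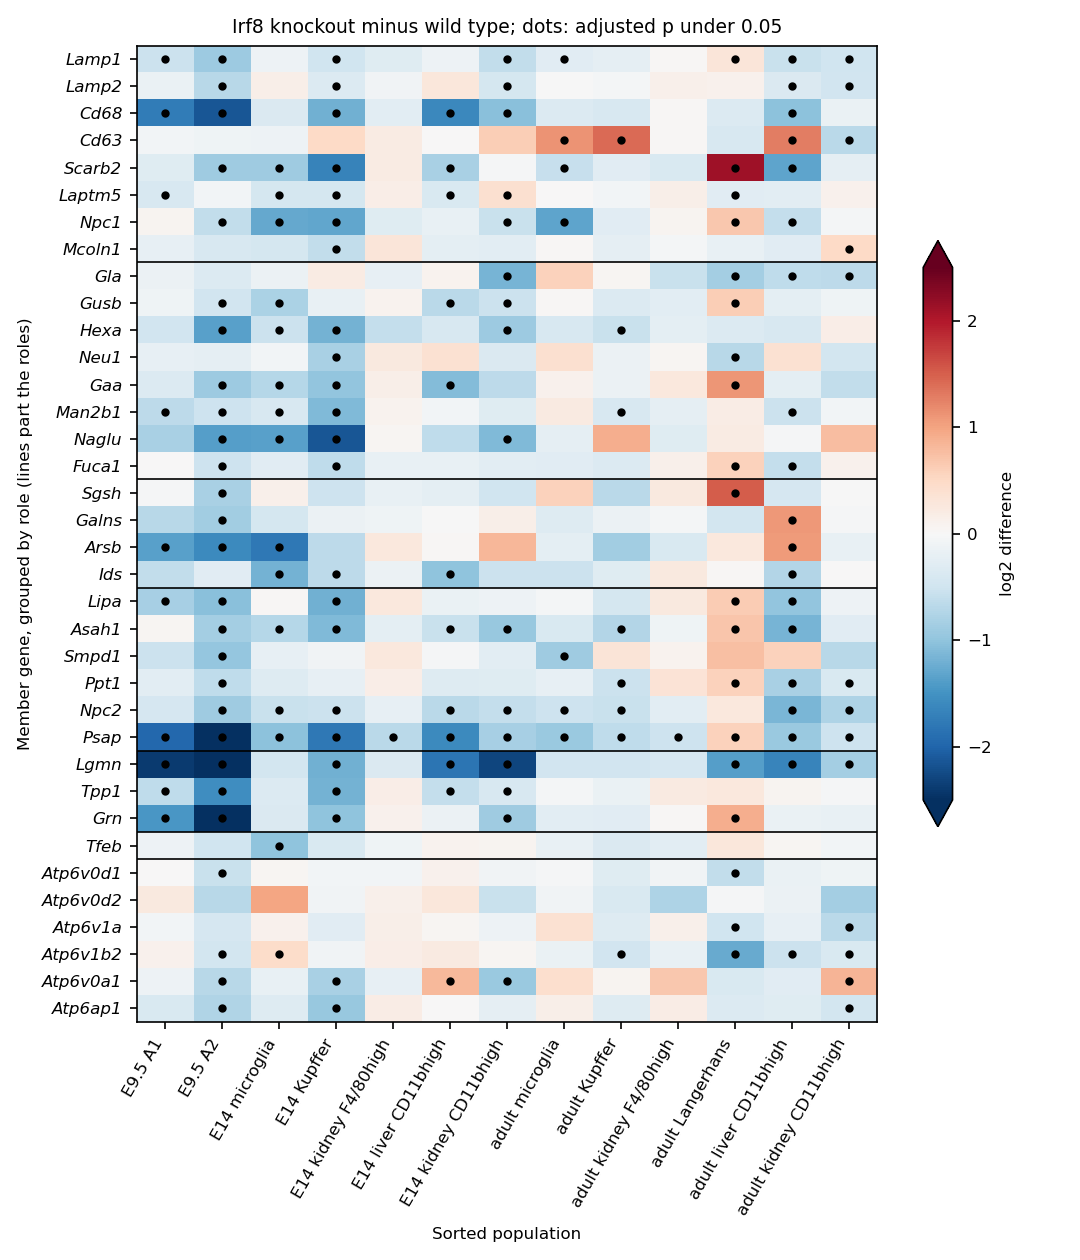
Irf8 knockout minus wild type (log2) of the 36 genes (rows, grouped by role) in 13 populations (columns), from blue (lower) to red (higher); dots mark an adjusted p under 0.05. The A2 and E14 Kupffer columns are the bluest with 27 and 23 genes lower, the 2 kidney F4/80high columns carry 1 dot each, and the Langerhans column is mixed with 12 genes higher and 7 lower.

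In the yolk-sac progenitors the protease gene Lgmn, Psap, Cd68 and Grn fell furthest. In A1, 10 genes were lower and 0 higher (2.77% and 0.591% of all genes; median -0.33 against 0.01). Lgmn fell from 5.77, 6.31 and 6.66 to 4.02, 3.21 and 4.31, a change of -2.4 ± 0.25 (adjusted p = 6.52e-11). Psap fell from 7.91, 8.41 and 8.80 to 6.65, 6.20 and 6.36 (-1.97 ± 0.15, adjusted p = 2.47e-16), and Cd68 from 7.94, 8.04 and 8.67 to 6.65, 6.68 and 6.09 (-1.74 ± 0.18, adjusted p = 4.07e-11). In each of these genes all knockout samples lay below all wild-type samples. Grn fell by 1.45 on the log2 scale (adjusted p = 3.01e-12). None of the 6 pump genes was called in A1.

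In A2, 27 genes were lower and 0 higher (6.29% and 3.77% of all genes), and all 36 means lay below the wild type (median -0.73 against 0.02). The lower genes were 6 of 6 lipid genes, 3 of 3 of the protease group, 6 of 8 sugar-cleaving enzymes, 3 of 4 sulfatases, 5 of 8 membrane proteins and 4 of 6 pump genes. Lgmn read 9.06, 8.96 and 8.52 in the wild type and 5.20, 5.87 and 5.10 in the knockout. The groups lay more than 2 log2 units apart, a change of -3.46 ± 0.25 (11.0-fold lower, adjusted p = 1.35e-17). Grn read 9.89, 9.55 and 9.30 against 6.45, 6.63 and 6.43, with almost no spread in the knockout, a change of -3.07 ± 0.14 (8.42-fold lower, adjusted p = 2.94e-27). Psap read 9.59, 9.51 and 9.24 against 7.16, 7.06 and 6.51, a change of -2.54 ± 0.15 (5.81-fold lower, adjusted p = 7.1e-22). Cd68 changed by -2.14 ± 0.18 (4.41-fold lower, adjusted p = 4.7e-15). The calls of Npc1, Gusb, Gaa, Naglu, Sgsh, Galns, Smpd1, Atp6v1b2 and Atp6v0a1 in A2 were lost when 1 or another sample was left out.

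General macrophage markers fell with these genes. Their sum was 32.8 to 34.4 in knockout A1 against 45.8 to 48.6 in the wild type, with 6 of 8 markers lower. In A2 it was 40.7 to 43.8 against 61.8 to 63.7, with 7 of 8 lower, and none of the 8 was at or under the floor in every sample of either genotype. Their part in the lower lysosomal genes was not tested.

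The median step from A1 to A2 was also smaller in the knockout. Between knockout A1 and A2, 7 genes rose and 1 fell (1.89% and 1.88% of all genes), with a median of 0.12 against -0.01. In the wild type 20 rose and 0 fell (5.67% and 5.7% of all genes), with a median of 0.59 against -0.02. Calls over all genes were thus also fewer in the knockout step, so the lower count is not particular to these genes. The median difference of the steps was -0.44, against 0.02 over all genes. The genes that rose in the knockout were Arsb (1.99 ± 0.37), Lgmn (1.55 ± 0.25), Cd68 (1.01 ± 0.18), Lipa (0.88 ± 0.18), Atp6v1b2 (0.54 ± 0.13), Psap (0.5 ± 0.15) and Laptm5 (0.48 ± 0.1). Smpd1 fell (-1.0 ± 0.3). The calls of Smpd1, Psap and Atp6v1b2 in this step were lost when single samples were left out, and Psap overlapped between knockout A1 and A2. The test of the difference itself called 4 genes, all with the smaller step in the knockout (lower in 1.05% and higher in 0.609% of all genes). They were Grn, Tpp1, Asah1 and Hexa. Grn rose by 1.51 in the wild type and changed by -0.12 in the knockout, a difference of -1.63 ± 0.19 (adjusted p = 2.08e-08). Tpp1 read 7.63, 7.61 and 7.44 in wild-type A1 and 8.64, 8.72 and 8.4 in A2, but 7.09, 6.86 and 6.83 and then 7.06, 7.07 and 7.0 in the knockout. The wild-type groups parted and the knockout groups overlapped, a difference of -0.91 ± 0.19 (adjusted p = 0.00185). The calls of Hexa and Asah1 were lost when single samples were left out. The knockout changes in A1 and A2 and these steps rest on the same 12 samples.

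**Figure D4:**
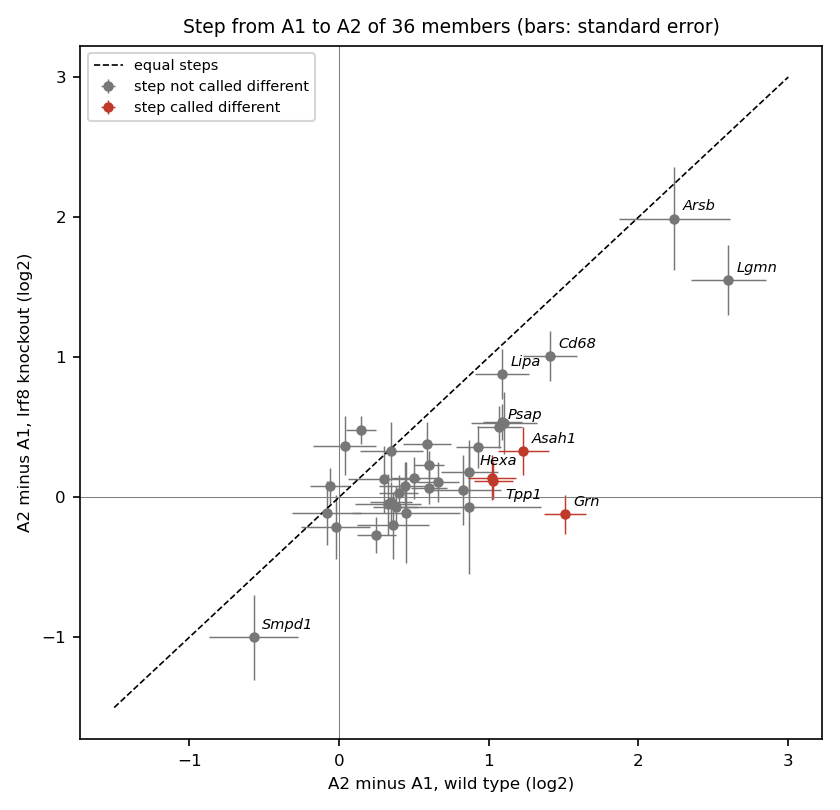
Log2 change from A1 to A2 of the 36 genes in the wild type (horizontal axis) and in the Irf8 knockout (vertical axis), with standard errors as bars and a dashed line of equal steps. Most points lie below the line, and Grn, Tpp1, Asah1 and Hexa (red) passed the test of the difference.

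At E14, Kupffer cells were the most affected. In the knockout 23 genes were lower and 0 higher (9.83% and 13.2% of all genes; median -0.64 against 0.03). They were 7 of 8 membrane proteins, 6 of 8 sugar-cleaving enzymes, 4 of 6 lipid genes, 3 of 3 of the protease group, 1 of 4 sulfatases and 2 of 6 pump genes. Naglu read 6.87, 6.95 and 6.43 in the wild type and 5.56, 4.10 and 4.18 in the knockout (-2.14 ± 0.36, adjusted p = 4.27e-06). Psap read 10.31, 10.36 and 10.47 against 8.38, 8.83 and 8.56 (-1.79 ± 0.15, adjusted p = 3.94e-15), and Scarb2 8.84, 9.04 and 9.0 against 7.22, 7.41 and 7.25 (-1.67 ± 0.15, adjusted p = 2.64e-13). In none of the 3 genes did the genotypes overlap. Npc1, the membrane protein that takes cholesterol from Npc2, fell by 1.3 on the log2 scale. All 8 macrophage markers were lower in these knockout samples, with sums of 58.5 to 61.7 against 73.9 to 75.8, and all 8 Kupffer cell markers too, with sums of 47.2 to 53.4 against 71.3 to 72.5. Their part was not tested.

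In E14 microglia 14 genes were lower and 1 higher (5.99% and 8.32% of all genes; median -0.36 against 0.03), and with only the 2 groups in the fit 23 were lower and 2 higher. Arsb read 10.76, 10.74 and 10.71 against 9.14, 8.93 and 8.78 (-1.79 ± 0.37, adjusted p = 0.000288), and Npc1 7.85, 7.98 and 7.89 against 6.67, 6.65 and 6.60 (-1.27 ± 0.19, adjusted p = 6.12e-07). Both were separated by far more than the spread within a genotype. Naglu (-1.35 ± 0.36) and Ids (-1.19 ± 0.21) were also lower. Atp6v1b2 rose, from 9.36, 9.58 and 9.41 to 9.89, 9.93 and 9.89 (0.46 ± 0.13, adjusted p = 0.00709). Tfeb was called lower here and in no other population, at 3.68, 3.66 and 3.47 against 2.77, 2.20 and 2.83 (-1.01 ± 0.22, adjusted p = 0.000528), with all knockout values under the floor. Neutrophil markers were higher in these knockout samples (8 of 12, with sums of 104.2 to 109.5 against 43.8 to 84.9), as were 7 of 7 monocyte markers, and 5 of 8 macrophage markers were lower. Their part was not tested.

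The E14 CD11bhigh gates gave 11 genes lower and 1 higher in liver (8.31% and 5.74% of all genes; median -0.18 against -0.02) and 15 lower and 1 higher in kidney (8.07% and 5.92%; median -0.42 against -0.03). The kidney count was 8 with only the 2 groups in the fit. Lgmn led both. In liver it read 6.57, 6.51 and 5.90 against 4.72, 4.15 and 4.66 (-1.82 ± 0.25, adjusted p = 7.56e-08), and in kidney 9.84, 9.83 and 9.81 against 6.87, 7.15 and 8.53 (-2.3 ± 0.25, adjusted p = 1.82e-10). Wild-type kidney samples were nearly equal, while 1 knockout sample lay well above the other 2. In liver Cd68 (-1.62 ± 0.18), Psap (-1.6 ± 0.15) and Gaa (-1.09 ± 0.24) followed, and Atp6v0a1 was the 1 gene higher (0.82 ± 0.22). In kidney Gla (-1.17 ± 0.23), Naglu (-1.1 ± 0.36) and Cd68 (-1.04 ± 0.18) followed, and Laptm5 was higher (0.41 ± 0.1). The calls of Atp6v0a1 in liver and of Naglu in kidney were lost when 1 or another sample was left out. In kidney Naglu read 5.27, 4.31 and 4.54 against 4.11, 3.9 and 2.8, the last under the floor. The knockout liver samples had lower monocyte markers (sums of 49.6 to 52.7 against 63.3 to 63.7) and lower macrophage markers (37.4 to 40.3 against 47.5 to 49.5, with C1qb at or under the floor in every knockout sample), and the knockout kidney samples had lower macrophage markers (46.0 to 61.8 against 68.2 to 70.7) and higher neutrophil markers (106.4 to 123.5 against 63.5 to 94.3). Their part was not tested.

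Kidney F4/80high macrophages changed least at both ages. Psap was the 1 gene lower at E14, where 1.38% of all genes were lower and 0.591% higher, and the 1 gene lower in the adult, where 2.2% were lower and 1.37% higher. The medians of the 36 genes were 0.06 and 0.02, against -0.0 and -0.01 over all genes. At E14 Psap read 10.14 and 10.05 in the wild type and 9.50, 9.36 and 9.37 in the knockout (-0.68 ± 0.16, adjusted p = 0.01). In the adult it read 10.73, 10.82 and 10.74 against 10.38, 10.17 and 10.19 (-0.52 ± 0.15, adjusted p = 0.0267). The genotypes did not overlap at either age. The E14 call was lost without knockout replicate 2 (adjusted p = 0.0508) or wild-type replicate 1 (0.173) or 2 (0.0848), and the adult call without knockout replicate 2 (0.127) or 3 (0.116) or wild-type replicate 1 (0.0563), 2 (0.105) or 3 (0.0737). It was also lost with each array centred on its median (0.0828). Macrophage markers differed little there: at E14 none of the 8 was called, and in the adult 1 was higher and none lower.

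In adult microglia 6 genes were lower and 1 higher (8.72% and 5.86% of all genes; median -0.17 against -0.03), and with quantile normalization 5 lower and 4 higher. Npc1 read 8.00, 7.78 and 8.03 against 6.63, 6.46 and 6.78, well apart (-1.31 ± 0.19, adjusted p = 1.45e-07). Psap (-0.93 ± 0.15), Smpd1 (-0.89 ± 0.3), Scarb2 (-0.58 ± 0.15), Npc2 (-0.51 ± 0.15) and Lamp1 (-0.28 ± 0.1) were also lower. Cd63 rose from 9.34, 9.21 and 9.27 to 10.42, 10.35 and 10.39, with tight groups (1.12 ± 0.23, adjusted p = 0.000221). Without knockout replicate 2 the count was 3, and Npc1, Psap and Cd63 kept their calls whichever sample was left out. The sum of the macrophage markers was 75.9 to 78.0 against 81.5 to 81.9, and Xist was 10.56 to 10.73 in the knockout samples against 2.99 to 10.36 in the wild type, whose samples thus differed among themselves in this marker of sex. The part of neither was tested. In adult Kupffer cells 7 genes were lower and 1 higher (7.4% and 4.5% of all genes; median -0.32 against -0.04). Cd63 read 6.18, 6.75 and 6.22 in the wild type and 7.07, 7.84 and 8.51 in the knockout, higher in each knockout sample but widely spread (1.42 ± 0.23, adjusted p = 8.66e-06). Asah1 (-0.74 ± 0.17), Psap (-0.63 ± 0.15), Npc2 (-0.56 ± 0.15) and Hexa (-0.56 ± 0.16) were lower. Of the 8 calls only those of Cd63 and Psap held whichever sample was left out, so those of Asah1, Npc2 and Hexa did not. The Kupffer count was 4 without knockout replicate 2, 5 without wild-type replicate 1 and 1 with only the 2 groups in the fit. Endothelial markers were higher in these knockout samples (7 of 8, with sums of 60.4 to 63.4 against 42.9 to 56.4), and Xist was 9.52 to 9.99 against 2.71 to 3.88, so the genotypes also differed in this marker of sex. The part of neither was tested. Of the X-linked genes Lamp2, Gla, Ids and Atp6ap1, none was called there, which does not test the part of sex in the other genes.

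The knockout effect differed between E14 and adult Kupffer cells. The difference of the effects, adult minus E14, was called above 0 for 12 genes and below 0 for 0 (5.89% and 10.5% of all genes; median 0.38 against -0.06), 7 with only the groups compared or without E14 knockout replicate 3, and 20 with quantile normalization. Naglu gave the largest, from -2.14 at E14 to 0.91 in the adult, where its knockout samples read 6.81, 7.08 and 5.16 against 5.67, 5.43 and 5.21. The adult genotypes overlapped, and the difference was 3.05 ± 0.51 (adjusted p = 1.18e-05). For Scarb2 the effect went from -1.67 to -0.28 (difference 1.38 ± 0.22, adjusted p = 3.86e-06). For Psap it went from -1.79 to -0.63 (1.16 ± 0.21, adjusted p = 3.74e-05). Xist separated the genotypes of adult Kupffer cells, at 9.52 to 9.99 in the knockout against 2.71 to 3.88. At E14 it ran from 3.14 to 9.24 in the knockout and from 5.76 to 9.71 in the wild type. Age, sex and the endothelial markers raised in the adult knockout cannot be told apart in this difference. In microglia the difference was above 0 for 5 genes and below 0 for 1 (3.7% and 6.81% of all genes; median 0.28 against -0.05). Gusb went from -0.79 to 0.02 (0.8 ± 0.22, adjusted p = 0.00841) and Cd63 from -0.12 to 1.12 (1.24 ± 0.33, adjusted p = 0.00771). Without adult wild-type replicate 2 the microglia count was 3.

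**Figure D5:**
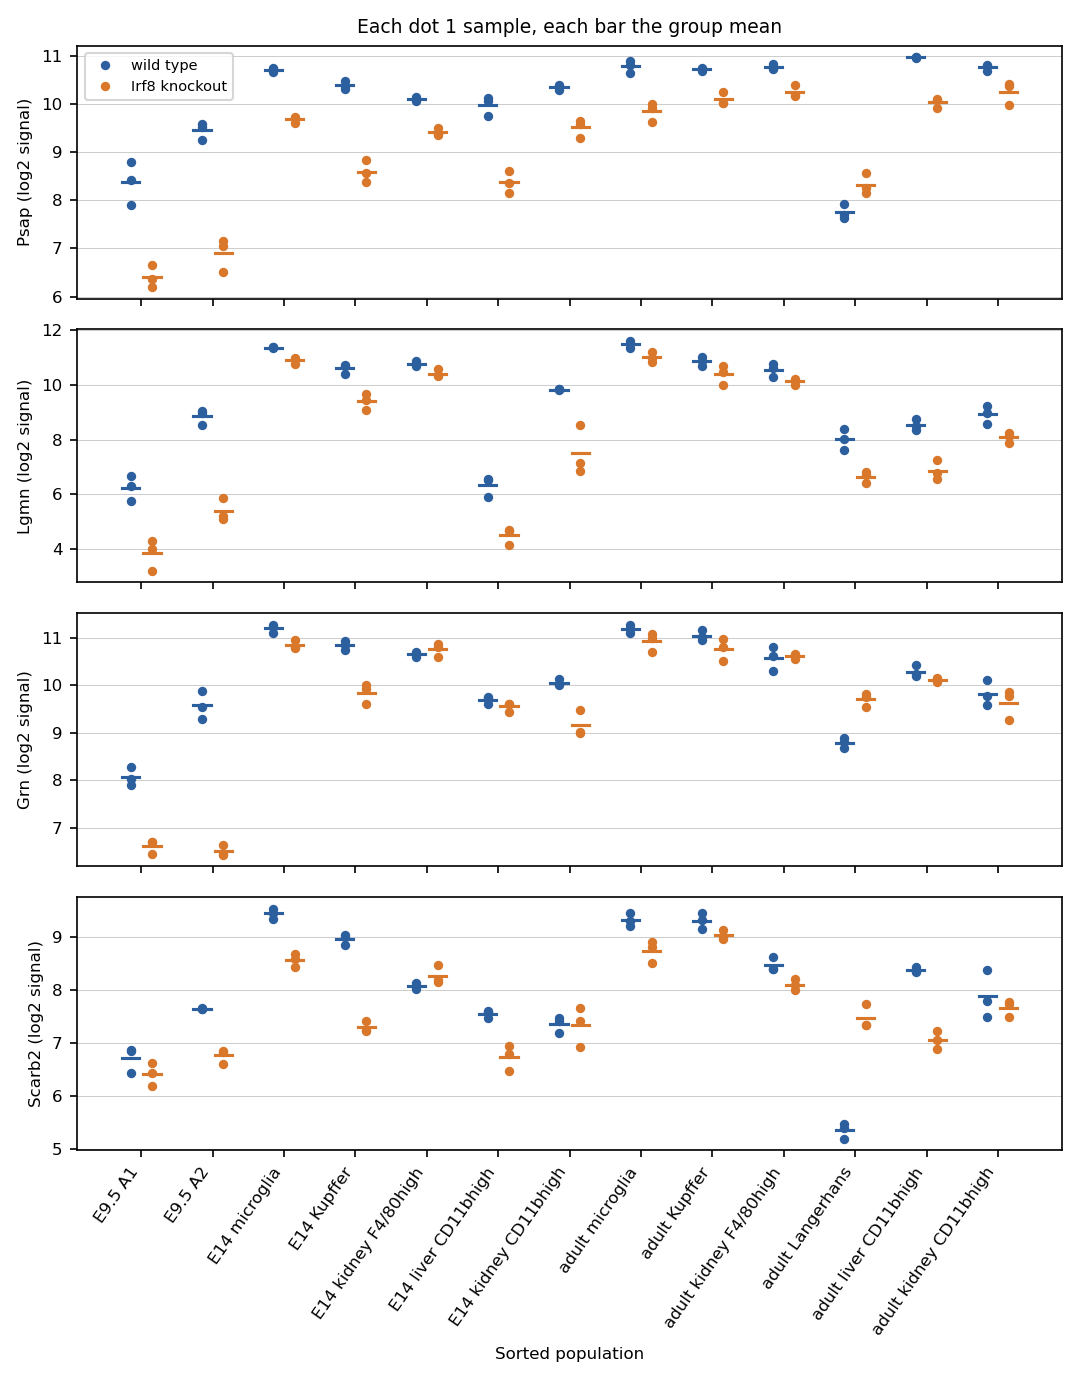
Log2 signal of Psap, Lgmn, Grn and Scarb2 in each sample (dots; blue wild type, orange Irf8 knockout) of 13 populations, with group means as bars. Psap lies lower in the knockout everywhere but in Langerhans cells, the Grn gap is widest in A2 at 9.30 or more against 6.63 or less, and Scarb2 is far higher in knockout Langerhans cells.

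Langerhans cells went their own way, with 12 genes higher and 7 lower in the knockout (16.6% and 10.4% of all genes; median 0.19 against -0.01). Scarb2 read 5.19, 5.46 and 5.4 in the wild type and 7.33, 7.33 and 7.73 in the knockout, a rise of 2.12 ± 0.15 (4.33-fold, adjusted p = 1.32e-17) with nearly 2 log2 units between the groups. Sgsh, the heparan N-sulfatase, read 2.46, 3.51 and 3.73 against 5.09, 4.4 and 4.75 (1.52 ± 0.25, adjusted p = 1.5e-06). Gaa (1.11 ± 0.24), Grn (0.91 ± 0.14), Npc1 (0.67 ± 0.19) and Psap (0.57 ± 0.15) were also higher, with 4 of 6 lipid genes in all. Lgmn fell, from 7.63, 8.01 and 8.38 to 6.40, 6.71 and 6.81 (-1.37 ± 0.25, adjusted p = 1.14e-05), with no overlap. The pump genes that passed all fell: Atp6v1b2 from 9.85, 9.70 and 9.71 to 8.37, 8.84 and 8.27 (-1.26 ± 0.13, adjusted p = 1.45e-12), Atp6v0d1 (-0.62 ± 0.14) and Atp6v1a (-0.5 ± 0.17), the subunits that were highest in wild-type Langerhans cells. Gla, the X-linked gene highest there as well, fell by 0.85 on the log2 scale. Xist was 7.7 to 9.68 in the knockout samples against 9.77 to 10.3. The Y-linked gene Eif2s3y was 4.87 to 7.57 against 1.31 to 2.68, so the genotypes differed in both markers of sex. The part of sex was not tested. Keratinocyte markers were higher in the knockout samples (6 of 7, with sums of 62.9 to 66.0 against 51.7 to 53.5), and the titles of the wild-type samples carry a GFP mark that those of the knockout samples lack. The part of either was not tested. The calls of Lamp1, Laptm5, Neu1, Lipa, Asah1 and Atp6v1a were lost when single samples were left out.

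In adult liver CD11bhigh macrophages 16 genes were lower and 3 higher (7.57% and 9.21% of all genes; median -0.33 against -0.02). Lgmn read 8.74, 8.34 and 8.49 against 6.80, 6.56 and 7.24 (-1.65 ± 0.25, adjusted p = 3.07e-07), and Scarb2 8.35, 8.34 and 8.42 against 7.22, 7.05 and 6.88 (-1.32 ± 0.15, adjusted p = 2.5e-10). Asah1 (-1.16 ± 0.17) and Npc2 (-1.14 ± 0.15) followed. Each of these 4 genes was lower in every knockout sample. The 3 genes higher were Cd63, at 7.2, 8.19 and 7.31 against 8.89, 8.93 and 8.69 (1.27 ± 0.23), Galns (1.08 ± 0.24) and Arsb (1.06 ± 0.37). In adult kidney CD11bhigh macrophages 11 were lower and 2 higher (6.71% and 6.95% of all genes; median -0.18 against -0.01). This count was not stable: it was 0 with only the 2 groups in the fit, and 6 without knockout replicate 2, and 7 without knockout replicate 3, wild-type replicate 1 or wild-type replicate 2. Lamp1 (-0.49 ± 0.1) and Npc2 (-0.77 ± 0.15) were called whichever sample was left out. Lgmn (-0.84 ± 0.25), Atp6v1a (-0.68 ± 0.17) and Cd63 (-0.67 ± 0.23) were lower, and Atp6v0a1 (0.84 ± 0.22) and the calcium channel gene Mcoln1 (0.49 ± 0.16) were higher. Neutrophil markers were higher in the knockout in both gates, with sums of 122.4 to 125.6 against 67.9 to 88.4 in liver and 98.3 to 107.3 against 44.7 to 60.1 in kidney, where Ngp and Camp were at or under the floor in every wild-type sample. Macrophage markers were lower, with 5 of 8 called in liver and 3 of 8 in kidney. Their part was not tested.

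Further genes of the pathway were read from lists of cathepsins, other hydrolases, other membrane proteins, other pump subunits, sorting factors, the relatives of Tfeb and the Ragulator and Rag proteins that dock mTORC1 to lysosomes. Of 97 listed genes 87 were tested. From E8 to the adult resident populations 57 were higher and 10 lower (27.6% and 31.3% of all genes; median 0.76 against 0.01), with 11 of 12 cathepsins, 14 of 16 other hydrolases and 7 of 12 other pump subunits higher. Ctss, the cathepsin of antigen-presenting cells, rose by 8.57 ± 0.19 from a mean of 2.34, under the floor, and Rragd, a Rag GTPase, fell by 5.0 on the log2 scale. From A1 to A2, 32 were higher and 1 lower in the wild type (5.67% and 5.7% of all genes), with Ctsb (2.19 ± 0.16), Ctsl (2.23 ± 0.18) and Ctsc (1.9 ± 0.17) first, and 7 higher and 1 lower in the knockout (1.89% and 1.88%).

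In knockout A2, 32 of the 87 were lower and 0 higher (6.29% and 3.77% of all genes), among them 8 of 12 cathepsins. Ctss went from a mean of 8.66 to 3.61 (-5.05 ± 0.24) and Ctsb from 10.04 to 6.62 (-3.42 ± 0.16, adjusted p = 3.24e-26 for both). In knockout A1, 11 were lower and 2 higher (2.77% and 0.591%), and Ctsl was among the higher (0.72 ± 0.18). In E14 Kupffer cells 47 were lower and 6 higher (9.83% and 13.2% of all genes), with 11 of 12 cathepsins lower. Ctsh fell there by 4.57 on the log2 scale (adjusted p = 4.33e-16), and it also fell by 4.28 in E14 microglia, by 4.78 in adult microglia and by 3.58 in E14 kidney F4/80high macrophages (adjusted p = 5.03e-09). In kidney F4/80high macrophages 2 were lower and 0 higher at E14 (1.38% and 0.591% of all genes) and 5 lower and 3 higher in the adult (2.2% and 1.37%). In Langerhans cells 24 were higher and 23 lower (16.6% and 10.4%). Lamtor4 (1.95 ± 0.17), Ctsd (1.17 ± 0.13) and the pump gene Tcirg1 (1.38 ± 0.16) were higher, and of the other pump subunits 6 of 12 were lower, with Atp6v1d (-0.98 ± 0.13) and Atp6v1c1 (-1.05 ± 0.14) first. In the remaining populations the counts of the 87 genes stand beside the shares of all genes that were lower and higher. At E14 they were 19 lower and 8 higher in microglia (5.99% and 8.32% of all genes), 19 and 3 in the liver CD11bhigh gate (8.31% and 5.74%), and 20 and 4 in the kidney CD11bhigh gate (8.07% and 5.92%). In the adult they were 20 lower and 8 higher in microglia (8.72% and 5.86%), 22 and 0 in Kupffer cells (7.4% and 4.5%), 23 and 8 in the liver CD11bhigh gate (7.57% and 9.21%), and 15 and 1 in the kidney CD11bhigh gate (6.71% and 6.95%). Over all genes, too, lower calls were more frequent than higher ones in both E14 CD11bhigh gates and in adult microglia and Kupffer cells.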

How the data were processed

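RNA of sorted mouse cells was hybridised to Affymetrix arrays. The labels' protocols describe enzymatic digestion of liver, kidney and skin, a Percoll gradient for brain, PicoPure columns for the RNA, Ovation PicoSL amplification and biotin labelling. The deposited table holds log2 signals from the RMA method, run by the authors in Expression Console, according to the submitters' processing notes. Its version was not given in the sources used here, nor was a build. RMA pulls the arrays towards a common distribution, so changes are relative to the bulk of genes. The array medians of the deposited values still ran from 2.942 to 3.195.

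Of 41345 probes, 23521 had a single gene symbol and 1814 had several. The brightest probe of each of 22180 genes was kept, and a gene was tested where its value exceeded 3.041, the median of the table, in 2 or more samples, which left 17076 genes. The A2 knockout sample with 2 array runs (correlation 0.969) was averaged and counted as 1 sample. The linear model (limma 3.58.1, R 4.3.3) held 1 mean for each of 27 groups over the 80 samples, with eBayes moderation by trend, 53 residual degrees of freedom and Benjamini-Hochberg adjustment over all genes tested. The code was tested on simulated data. Python 3.11.15 with pandas 2.3.3 and matplotlib 3.10.9 wrote the tables and figures.

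The members and lists were chosen with earlier results of these data known. Named genes were the members with the largest changes among those called, up to 4 per direction and comparison, and up to 3 further pathway genes per direction with the smallest adjusted p; others were named where a count or a pattern rests on them. The searches for the composite and the interferon-response sequences were added later. The alternatives tried were to fit the compared groups alone, to weight arrays, to add the replicate number as a block, to normalize by quantiles, to centre each array, to drop the filter, to average probes, to use either run of the repeated sample, and to leave out each sample.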

Additional observations from a re-analysis of the deposited data

Results flagged for a closer look

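A difference of effects that passed its own test was found for 22 combinations of gene and comparison. Values are log2 differences ± standard error of limma's contrast of contrasts, with p adjusted by the Benjamini-Hochberg method over all genes, and the cause of each was not tested.

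The step from A1 to A2 was smaller in the knockout than in the wild type for Hexa (-0.89 ± 0.23, adjusted p = 0.0245), Asah1 (-0.9 ± 0.24, adjusted p = 0.0319), Tpp1 (-0.91 ± 0.19, adjusted p = 0.00185) and Grn (-1.63 ± 0.19, adjusted p = 2.08e-08). Tpp1 and Grn kept their calls whichever sample was left out.

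In microglia the knockout effect, adult minus E14, differed for 6 genes. It was above 0 for Cd63 (1.24 ± 0.33), Laptm5 (0.44 ± 0.15), Gusb (0.8 ± 0.22), Man2b1 (0.64 ± 0.18) and Arsb (1.54 ± 0.53). It was below 0 for Atp6v1b2 (-0.61 ± 0.18), which was higher in the E14 knockout (0.46) and not called in the adult (-0.16). The adjusted p-values ran from 0.00771 for Cd63 to 0.0469 for Arsb, and those of Laptm5, Arsb and Atp6v1b2 missed the threshold without some single sample.

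In Kupffer cells it was above 0 for 12 genes: Cd68 (0.79 ± 0.25), Cd63 (0.94 ± 0.33), Scarb2 (1.38 ± 0.22), Npc1 (1.01 ± 0.27), Man2b1 (0.69 ± 0.18), Naglu (3.05 ± 0.51), Lipa (0.77 ± 0.25), Psap (1.16 ± 0.21), Tpp1 (1.02 ± 0.19), Grn (0.72 ± 0.19), Atp6v0a1 (0.88 ± 0.31) and Atp6ap1 (0.62 ± 0.2). The adjusted p-values ran from 3.86e-06 for Scarb2 to 0.0422 for Atp6v0a1. The genotypes of adult Kupffer cells also differed in Xist, so age and sex cannot be told apart here, and Atp6ap1 is X-linked. The calls of Cd68, Cd63, Lipa, Atp6v0a1 and Atp6ap1 were lost without some single sample. For Cd63 the effect was 0.49 at E14 and 1.42 in the adult, so the knockout mean was above the wild-type mean at both ages, unlike those of the other genes named here at E14.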

How the results depend on the processing

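No single gene called in a comparison was called in the opposite direction in any alternative, but in the adult liver gates the majority of calls turned, from 11 higher and 5 lower to 6 and 9 with median centring, and in kidney F4/80high macrophages with age it went from 7 and 5 to 7 and 7. The total of called genes was followed for 29 comparisons. With array weights 6 counts moved by more than 1.5 times: knockout A1 to 16, E14 kidney F4/80high to 2, adult Kupffer cells to 2, adult kidney F4/80high to 2, adult kidney CD11bhigh to 4 and the difference in the step to A2 to 10. With only the groups compared 6 moved: the adult kidney gates to 9, knockout E14 microglia to 25, E14 kidney CD11bhigh to 8, adult Kupffer cells to 1, adult kidney CD11bhigh to 0 and the difference with age in Kupffer cells to 7. With median centring the knockout count was 0 in adult kidney F4/80high and 8 in adult kidney CD11bhigh; with quantile normalization it was 8 in the latter, and the difference with age in Kupffer cells was 20. The cause was not tested. With 1 sample left out the counts ran from 0 to 1 in both kidney F4/80high comparisons, from 3 to 6 in adult microglia, from 4 to 12 in adult Kupffer cells, from 6 to 14 in adult kidney CD11bhigh, from 2 to 5 for the step to A2, from 3 to 5 for age in microglia and from 7 to 14 for age in Kupffer cells. The step to A2 gave 2 without A1 knockout replicate 3, A1 wild-type replicate 1, A2 knockout replicate 3 or A2 wild-type replicate 1 or 2.

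No filter, the mean over probes and each array run alone moved none of the counts they could change. The replicate numbers were not taken as pairs: in no comparison did every same-numbered pair correlate above 0.1. The adult kidney gates came closest, with 3 pairs from 0.1, at the cutoff, to 0.39. Whether these pairs came from the same animals is not stated. For wild-type E14 Kupffer cells and both genotypes of E14 liver CD11bhigh macrophages the labels repeat a replicate number, so the numbers used there follow the order of deposit, pair nothing, and make the block uninformative for comparisons of these groups. With the replicate block over all samples, these included, the counts were 27 in knockout A2, 19 in Langerhans cells and 12 in adult kidney CD11bhigh, and of 424 called gene values 1 was lost (Gla in adult kidney CD11bhigh). Of the same 424, 62 were lost with only the groups compared, 27 with array weights, 27 with median centring, 24 with quantile normalization, 13 with no filter and 6 with the mean over probes. Leaving out single samples lost 371 of 2949 calls. Low signal limits Tfeb, Atp6v0d2, Sgsh in Langerhans cells, Arsb in E8 progenitors and Naglu in E8 progenitors and knockout A2, which lay at or near the floor.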

Other observations

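The probe shared by Glb1 and Tmppe cannot be given to either gene. Its level was 5.02 ± 0.05 (SD, n = 3) in E8 progenitors. In A2 it was 6.61 ± 0.05 in the wild type and 5.94 ± 0.08 in the knockout, and in E14 Kupffer cells 7.01 ± 0.17 and 6.32 ± 0.1 (SD, n = 3 each). In Langerhans cells it was 4.57 ± 0.22 in the wild type and 5.16 ± 0.42 in the knockout (SD, n = 3 each).

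A second probe was present for 4 of the genes. Over the samples it correlated with the brighter one at 0.96 for Arsb, 0.91 for Atp6v1b2 and 0.81 for Smpd1, but at only 0.32 for Npc1. The means of the Npc1 probes were 6.23 and 3.77, so the dimmer one lay close to the median of the table.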
